A study of Mus musculus with 24 samples.

Results

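Growth hormone (GH) was given to mice whose pituitary stalk had been destroyed, and hypothalamic RNA collected at day 10 after the lesion was compared between 3 libraries with GH (PEL_10d-GH) and 3 without it (PEL_10d). These 6 libraries are all the day 10 hypothalamic libraries among the 24 of the series, chosen by their labels and not by any measured value. PEL stands for pituitary stalk electrical lesion, in which the stalk is injured electrolytically with a printed knife, and both groups carried this lesion. The animals were male C57BL/6J mice, and the tissue was hypothalamus holding the supraoptic and paraventricular nuclei. The dose, route and schedule of GH are not given in the labels or the methods, nor whether the PEL_10d mice received a vehicle, nor whether 1 library stands for 1 mouse. The p-values below therefore measure only the spread between these libraries, which may be partly technical. The same contrast at day 3 (PEL_3d-GH against PEL_3d) and without a lesion (Sham-GH against Sham), with 3 libraries in each group, is used only where a value at day 10 is set beside it.

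The stalk carries the axons of oxytocin and vasopressin neurons to the posterior pituitary and the portal vessels through which hypothalamic peptides control the anterior pituitary. A stalk lesion can therefore leave an animal with low circulating pituitary hormones, GH among them. GH acts through its receptor and the kinase JAK2 on STAT transcription factors, mainly STAT5. These induce IGF-1 and the feedback inhibitors CIS and SOCS2, and GH also feeds back on the hypothalamic neurons that make GHRH and somatostatin.

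Total counts ranged from 15395549 to 16668523 (median 15792361) in the PEL_10d libraries and from 15833661 to 17285291 (median 16966196) in the PEL_10d-GH libraries. Levels are given as counts per 1000000 of the library's effective total (CPM) and are compared only between libraries, not between genes. Hypothalamic identity was checked on markers, and all 6 libraries held Pmch, the melanin-concentrating hormone gene, at 411 to 783 CPM, Hcrt, the orexin gene, at 41.9 to 189 CPM and the transcription factor gene Nkx2-1 at 16.0 to 26.2 CPM. Correlations of log2 CPM between libraries were 0.985 to 0.992 and were no higher within a group than between groups. Replicates differed by more than sampling noise in all 6 pairs within groups, with a chi-square per degree of freedom of 8.71 to 19.7.

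Some libraries of both groups stood apart. PEL_10d-GH 3 held Pomc, the precursor of ACTH and melanotropins, at 5479 CPM, against 24.1 and 30.3 CPM in PEL_10d-GH 1 and 2 and 10.4 to 79.5 CPM in the PEL_10d group. The same library had the highest levels among the 6 of Pax7 (7.08 CPM) and Tbx19 (4.87 CPM), which mark melanotrope and POMC cells of the pituitary, and 497 counts of prolactin (Prl) against 71 in PEL_10d-GH 2 and 1 to 7 in the others. Over the anterior pituitary list, 3 of 10 genes passed the filter on low counts, and Pou1f1, a defining factor of somatotropes and lactotropes, was at 0 counts in all 6 libraries. PEL_10d 3 was low in several hypothalamic genes, with Pomc at 10.4 CPM against 79.5 and 56.6 CPM in PEL_10d 1 and 2, Ghrh at 1.11 against 7.95 and 7.26 CPM, and Gpr50, a tanycyte gene, at 13.1 against 48.9 and 41.98 CPM. Its median deviation on the log2 scale was -0.30 over tanycyte and ependymal genes, against 0.31 and 0.08, and -0.25 over hypothalamic transcription factors, against 0.20 and 0.13. PEL_10d 2 had the lowest median deviation over disease-associated microglia genes, at -0.55, against 0.30 and 0.21 in PEL_10d 1 and 3. It was also lowest over complement genes, at -0.37, against 0.24 and 0.06. Over collagen and fibroblast genes it was at -0.48, with PEL_10d-GH 1 at -0.43. Haemoglobin also varied, and Hbb-bs was highest in PEL_10d-GH 1 at 58.7 CPM and next highest in PEL_10d 3 at 36.2 CPM. The part of these departures and of pituitary and blood RNA in the differences below was not tested.

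No gene passed an adjusted p under 0.05 in edgeR's quasi-likelihood test over 14763 genes (0% called, lowest adjusted p 0.35). At an unadjusted p under 0.05, 550 genes (3.73%) were higher and 356 (2.41%) lower with GH, 906 in all (6.14%), and 50.3% of genes had a log2 fold change above 0. The count of higher genes ranged from 293 without PEL_10d 2 to 785 without PEL_10d 1, and that of lower genes from 159 to 656 without the same libraries. All 3 libraries with GH lay above all 3 without it for 908 genes (6.15%) and below for 781 (5.29%). DESeq2, run as an alternative, called 39 genes at an adjusted p under 0.05, 32 higher (0.217%) and 7 lower (0.0474%), and in each of the 39 the groups did not overlap. DESeq2 gave no adjusted p for 6012 genes, Hif3a and Crh among them. Differences were small in size, and the median log2 fold change was 0.00, with quartiles at -0.08 and 0.10, and 69 genes reached 1 in either direction. The named results that follow are therefore differences in level that did not pass the adjusted threshold in edgeR, and each count of genes is read against the shares above.

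**Figure D1:**
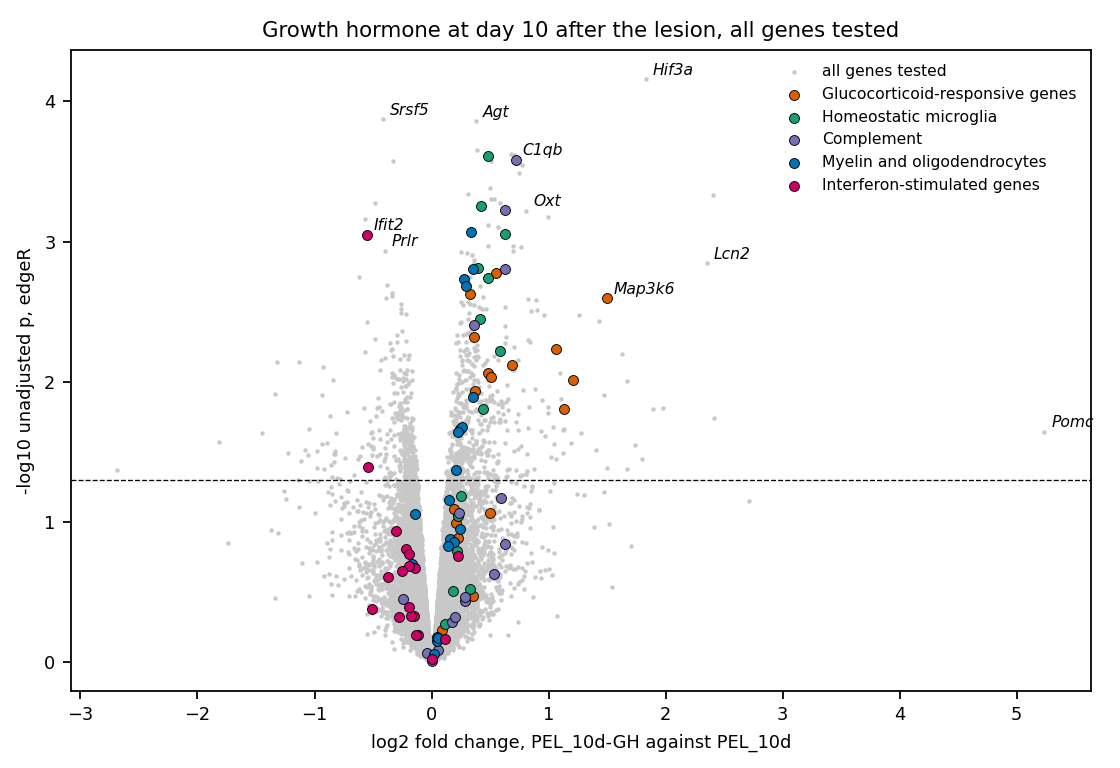
Each point is 1 of 14763 genes, with the log2 fold change of PEL_10d-GH against PEL_10d on the horizontal axis and the -log10 of edgeR's unadjusted p on the vertical axis, and 5 gene lists are coloured. The dashed line marks an unadjusted p of 0.05; Hif3a lies highest, the glucocorticoid-responsive and homeostatic microglial genes lie to the right of 0, and 3 of 19 interferon-stimulated genes have a value above 0.

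The 12 genes of smallest p in each direction were taken only from genes whose groups did not overlap. Their separation was thus set by the choice. The 12 higher with GH were led by Hif3a, which encodes a hypoxia-inducible factor subunit that can oppose HIF-1 (chromosome 7, 17031507 to 17062427, GRCm38). Hif3a was at 1.94, 2.58 and 3.20 CPM in PEL_10d 1 to 3 and at 6.30, 10.5 and 10.7 CPM in PEL_10d-GH 1 to 3. The lowest library with GH thus lay above the highest without it, and the means differed 3.56-fold. The log2 fold change was 1.83 (SE 0.26, unadjusted p = 6.95e-05) and ranged from 1.67 to 2.04 as each library was left out.

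Both endothelial transporters among the 12 belong to the blood-brain barrier. Slc2a1, the barrier's glucose transporter (chromosome 4, 119108711 to 119137983), was at 101, 104 and 113 CPM without GH and 140, 143 and 171 CPM with it, a log2 fold change of 0.51 (SE 0.09). Mfsd2a, the barrier's carrier of lysophosphatidylcholine bound to docosahexaenoic acid (chromosome 4, 122946850 to 122961188), was at 21.0, 19.4 and 16.5 CPM without GH and 33.5, 27.8 and 29.9 CPM with it, a log2 fold change of 0.68 (SE 0.11). The groups did not overlap for either gene, as the choice of the 12 required. The rest of the endothelial list was mixed. Of its 15 genes, 5 were higher at an unadjusted p under 0.05 and none lower, 10 had a log2 fold change above 0, and the median was 0.04, with Cldn5, the main tight junction claudin of brain endothelium, at -0.23. Without PEL_10d-GH 3, 2 of the 15 were higher and the median was -0.02, and without PEL_10d 2 these were 2 and -0.03. The median was 0.17 without PEL_10d-GH 1 and 0.16 with 6 higher without PEL_10d 3.

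Agt, which encodes angiotensinogen, made in brain mainly by astrocytes, was at 230 to 248.6 CPM without GH and at 303, 329 and 313 CPM with it (log2 fold change 0.38, SE 0.06). Klf13, a Kruppel-like factor gene, was at 61.4 to 66.4 CPM without GH and 80.2 to 87.3 CPM with it, and Pmepa1, a feedback inhibitor of TGF-beta signalling, at 28.9 to 33.9 against 42.2 to 46.0 CPM. Kcnk6, a tandem-pore potassium channel gene, was at 6.39 to 7.62 against 10.7 to 13.03 CPM. For these 4 genes the gap between the groups was wider than the range within either group. Tmem254a was at 33.5 to 39.8 against 48.2 to 54.9 CPM, and its value is uncertain because near-identical copies lie beside it.

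A further 4 of the 12 are genes of microglia and phagocytes. C1qb, a chain of complement C1q (chromosome 4, 136880129 to 136886187), was at 151, 110 and 126 CPM without GH and 188, 241 and 209 CPM with it, a log2 fold change of 0.72 (SE 0.12) and the smallest adjusted p in DESeq2 (2.72e-05). Mertk, a receptor for the uptake of apoptotic cells, was at 26.7, 25.4 and 34.6 against 42.0, 50.9 and 52.7 CPM (log2 fold change 0.75, SE 0.13). Ly86, which encodes the partner MD-1 of the receptor RP105, was at 23.6, 19.5 and 24.3 against 39.3, 38.7 and 31.5 CPM (log2 fold change 0.70, SE 0.12). Olfml3, a secreted protein gene typical of resident microglia, was at 45.8 to 53.8 against 68.2 to 74.2 CPM (log2 fold change 0.48, SE 0.08). In all of them the lowest library with GH was above the highest without it, as the choice of the 12 required.

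**Figure D2:**
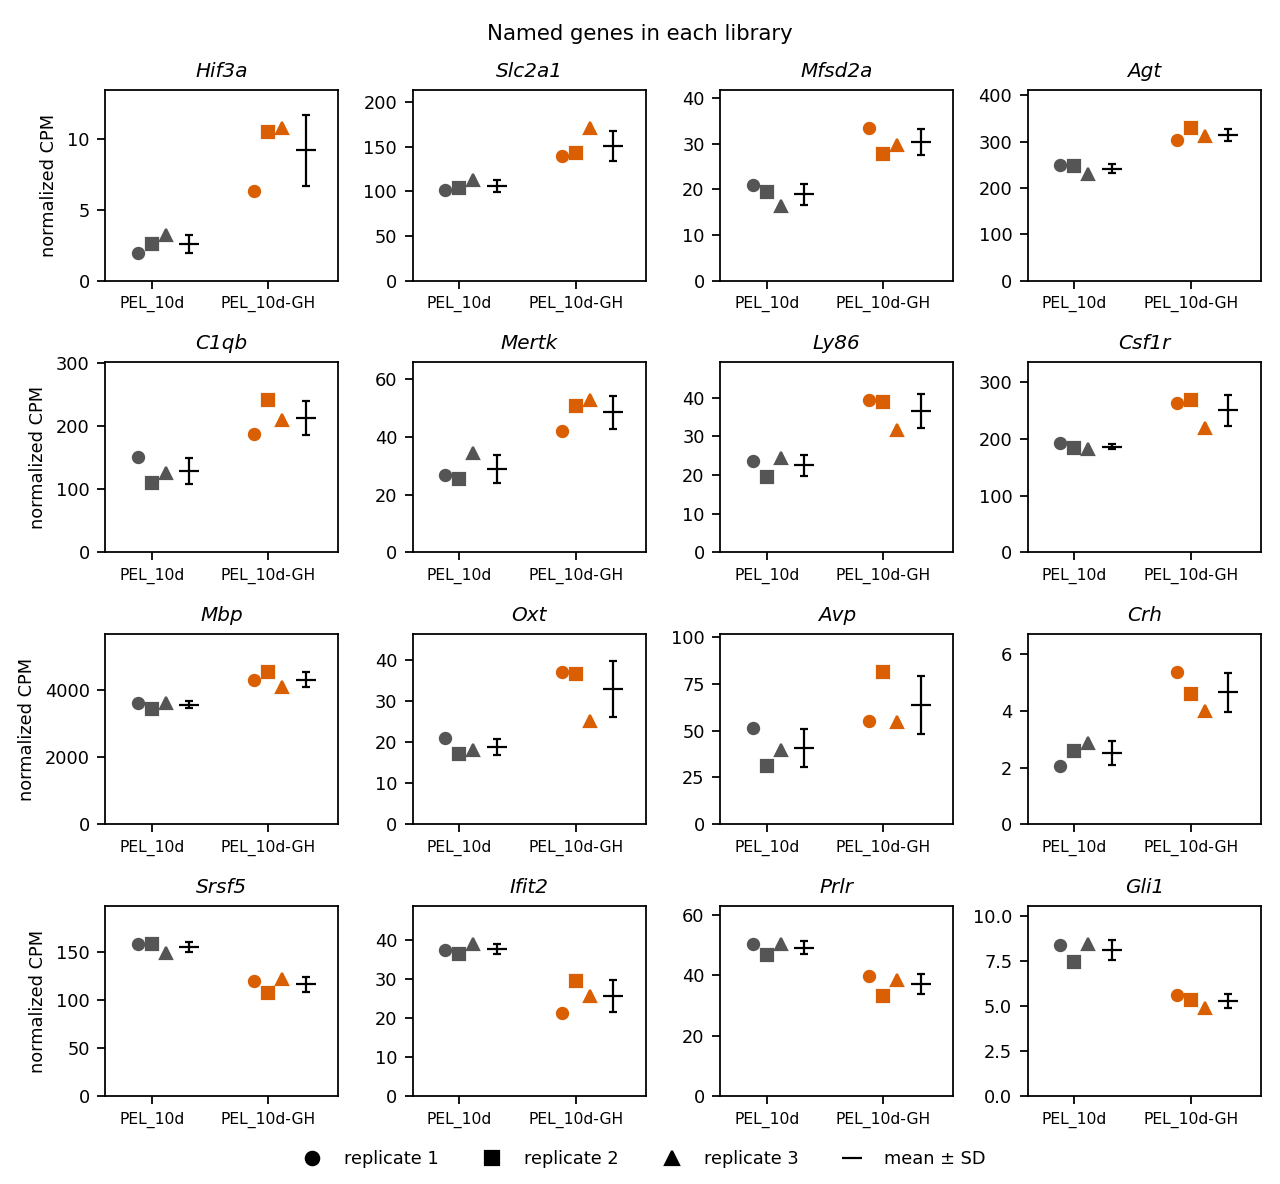
Normalized CPM on a linear axis starting at 0 for 16 named genes, 1 symbol per library (circle, square and triangle for replicates 1 to 3) and the mean with its SD (n = 3) beside each group. In every panel the 3 libraries with GH lie on 1 side of the 3 without it, above for 12 genes and below for Srsf5, Ifit2, Prlr and Gli1. These genes were picked by small p with separated groups or by list, so the separation is not a count to read against 11.4%.

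The 12 genes of smallest p among those lower with GH differed by less. Srsf5, a splicing factor gene (chromosome 12, 80945504 to 80950507), was at 158, 158 and 149 CPM without GH and 120.0, 108 and 121 CPM with it, a log2 fold change of -0.41 (SE 0.06). Hnrnpdl, which encodes an RNA-binding protein of the hnRNP family, was at 139 to 151 against 114 to 119 CPM (log2 fold change -0.33, SE 0.06). Rasgrp1, which activates Ras on diacylglycerol and calcium, was at 73.8 to 84.0 against 49.1 to 59.9 CPM (log2 fold change -0.48, SE 0.09). None of the libraries with GH reached the lowest one without it for these genes, as the choice of the 12 required.

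A pair of the lower genes are targets and parts of the hedgehog pathway. Gli1, a transcription factor gene that hedgehog signalling itself induces, was at 8.39, 7.44 and 8.43 CPM without GH and 5.59, 5.34 and 4.87 CPM with it (log2 fold change -0.62, SE 0.14). Ptch1, the hedgehog receptor gene and another target of the pathway, was at 151 to 178 against 121 to 139 CPM (log2 fold change -0.34, SE 0.08). Both were picked by the same rule on p and separation, and no list of hedgehog genes was tested.

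The remaining lower genes include several expressed by neurons. Dgkb, a diacylglycerol kinase gene, was at 122 to 152 against 104 to 111 CPM, Fgf14, a regulator of voltage-gated sodium channels, at 46.2 to 52.0 against 36.8 to 41.6 CPM, and Trpc5, a cation channel gene, at 21.8 to 23.4 against 16.2 to 18.7 CPM. Arhgap20 was at 91.6 to 102 against 80.7 to 83.4 CPM and the zinc finger gene Zfp937 at 11.3 to 11.6 against 7.42 to 8.01 CPM. The remaining genes, Prlr and Ifit2, are described with their lists.

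Genes of the direct GH pathway passed the unadjusted threshold at day 10 at a share near that of all genes. Of 26 tested genes of GH signalling and the IGF axis, 1 was higher and 1 lower at an unadjusted p under 0.05. This is 7.69%, against 6.14% of all genes. The groups did not overlap for 1 gene above and 1 below, against 11.4% of all genes. Of the 26, 14 had a log2 fold change above 0, and the median was 0.10. The median was 0.01 without PEL_10d-GH 3, with 0 genes higher and 2 lower, 0.02 without PEL_10d-GH 2 and 0.03 without PEL_10d 2, and 6 genes were higher without PEL_10d-GH 1. The GH receptor gene Ghr was at 32.4, 27.5 and 23.3 CPM without GH and 23.1, 23.6 and 25.4 CPM with it, so the groups overlapped (log2 fold change -0.21, SE 0.12). Jak2, Stat5b and Stat3 were within 0.04 of 0 on the log2 scale, at -0.03, -0.03 and 0.00, and Stat5a was at -0.27 (SE 0.21). The 2 genes past the unadjusted threshold were Prlr, the prolactin receptor (chromosome 15, 10177238 to 10349180), and Ptpn6, the phosphatase SHP-1, which is abundant in microglia. Prlr was at 50.2, 46.6 and 50.4 CPM without GH and 39.6, 33.3 and 38.5 CPM with it (log2 fold change -0.40, SE 0.09), and Ptpn6 had a log2 fold change of 0.38 (SE 0.17) with overlapping groups.

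The targets of STAT5 are usually the first readout of GH. Socs2 was at 7.89, 4.50 and 7.19 CPM without GH and 9.48, 5.02 and 18.6 CPM with it. Only PEL_10d-GH 3 was far above the range of the PEL_10d libraries, and PEL_10d-GH 2 lay inside it. The log2 fold change of Socs2 was 0.77 (SE 0.42) over all libraries and 0.16 without PEL_10d-GH 3. Cish, which encodes CIS, was at 5.51, 6.30 and 3.99 against 6.42, 4.83 and 10.9 CPM, and its log2 fold change of 0.48 (SE 0.30) was 0.10 without that library. Igf1 was at 40.2, 18.1 and 28.9 against 22.3, 48.9 and 47.2 CPM (log2 fold change 0.44, SE 0.33), with PEL_10d-GH 1 near the low end of both groups. Igfbp3, the main carrier of circulating IGFs, had a log2 fold change of 0.46 (SE 0.27), and 0.02 without PEL_10d-GH 3.

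The promoters of this list were searched for the STAT5 half-site pair TTCNNNGAA, which reads the same on both strands, in the RefSeq windows of 27025 genes (GRCm38.p6, 250 bases before to 50 after the start). It was in 4 of 25 promoters of the list (16%), Cish, Socs3, Igfals and Prlr, in 4 of 15 promoters (26.7%) of the glucocorticoid-responsive list described below and in 9.55% of all promoters. Cish and Socs3 are shown because they are feedback inhibitors of the pathway, with the matches in capitals and the strand of the gene read 5′ to 3′. The Cish stretch is chr9:107296655-107296682 on the plus strand and the Socs3 stretch chr11:117969492-117969540 on the minus strand.
Cish: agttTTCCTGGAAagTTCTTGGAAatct
Socs3: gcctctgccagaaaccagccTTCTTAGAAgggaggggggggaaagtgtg
The paired matches of Cish begin 1 and 12 bases from the annotated start and that of Socs3 at -154. In the GENCODE annotation the Cish stretch lies in the 5′ UTR and the Socs3 stretch in an intron of a longer isoform. A match is a description of the letters. Socs3 had a log2 fold change of 0.19 (SE 0.24), with 7.95, 5.16 and 6.93 CPM without GH and 5.83, 6.68 and 10.3 CPM with it, and neither Cish nor Socs3 had separated groups. Prlr, whose match begins at -110, did separate the groups, with lower levels with GH.

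Among genes of the hypothalamic control of GH release, 0 of 9 tested passed the unadjusted threshold in either direction, and the median log2 fold change was -0.01, between -0.15 without PEL_10d 3, where 3 were lower, and 0.14 without PEL_10d 1. Ghrh, the releasing hormone gene, was at 7.95, 7.26 and 1.11 CPM without GH and 4.004, 2.99 and 3.48 CPM with it (log2 fold change -0.64, SE 0.54). PEL_10d 3 held far less Ghrh than the other libraries. Sst, the somatostatin gene, was at 125, 101 and 53.4 against 114, 90.4 and 101 CPM (log2 fold change 0.13, SE 0.25). Ghsr, the ghrelin receptor gene, had a log2 fold change of -0.40 (SE 0.21), and the tested somatostatin receptors lay between -0.11 and 0.19. The receptor gene Ghrhr had 0 counts in all 6 libraries, where a count of 0 allows up to 3 counts.

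Oxytocin and vasopressin, made by the magnocellular neurons whose axons run through the stalk, were at higher levels with GH. Oxt, the oxytocin gene (chromosome 2, 130576173 to 130577054), was at 21.0, 17.2 and 18.2 CPM without GH and 37.2, 36.8 and 25.1 CPM with it. The groups did not overlap, and the means differed 1.76-fold, from 18.8 ± 1.99 to 33.0 ± 6.84 CPM (SD, n = 3). The log2 fold change of Oxt was 0.81 (SE 0.16, unadjusted p = 0.000602), it was 0.97 without PEL_10d-GH 3, and DESeq2 gave an adjusted p of 0.00137. Avp, the vasopressin gene, was at 51.3, 31.3 and 39.4 against 55.3, 81.2 and 54.4 CPM, a log2 fold change of 0.65 (SE 0.20) with no overlap but a gap of only a few CPM. Both genes also varied within some other groups, on a scale set over 18 libraries. Oxt was at 48.1 and 118.9 CPM in Sham 2 and 3. It was at 15.9 to 41.2 CPM in PEL_3d and at 11.7 to 36.0 CPM in PEL_3d-GH. Avp was at 12.4 to 17.9 CPM in PEL_3d but at 6.58, 60.2 and 12.4 CPM in PEL_3d-GH. In bulk tissue, more cells of a type and more RNA per cell cannot be told apart, and this holds for every cell type below.

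Of the 10 magnocellular and co-expressed peptide genes, 4 were higher and 0 lower at an unadjusted p under 0.05. Of them, 7 were above 0 and the median was 0.13, or 0.07 with 3 higher without PEL_10d-GH 3. Without PEL_10d 3, 3 were higher and 1 lower. Over all libraries the higher ones besides Oxt and Avp were Vgf and Gal. Vgf, a neuropeptide precursor induced by activity, was at 139.9 to 175 against 183 to 215 CPM. Gal, galanin, was at 25.2 to 30.7 against 31.2 to 34.5 CPM. Pdyn, the prodynorphin gene made in vasopressin neurons, did not follow, at 92.3, 90.1 and 47.4 against 69.7, 76.9 and 75.4 CPM (log2 fold change -0.05, SE 0.21). Scg2, Nucb2, Penk and Apln lay between -0.03 and 0.15, and Cck was at -0.27 (SE 0.18).

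Crh, the corticotropin-releasing hormone gene of parvocellular neurons, was at 2.07, 2.58 and 2.88 CPM without GH and 5.36, 4.58 and 4.002 CPM with it, a log2 fold change of 0.89 (SE 0.22, unadjusted p = 0.00263). The groups did not overlap. Among the 9 tested genes of other releasing hormones and dopamine synthesis, Crh was past the unadjusted threshold and the median was 0.15. There were 3 genes past it as higher without PEL_10d 2 and also without PEL_10d-GH 3, and the median was 0.07 without PEL_10d-GH 1 and 0.27 without PEL_10d 3. Th, tyrosine hydroxylase, had a log2 fold change of 0.39 (SE 0.17). Of 11 feeding and arousal peptides, Pomc and Hcrt were past it as higher. Without PEL_10d 3, 0 were higher and 3 lower. The log2 fold change of Pomc was 5.24 (SE 1.91) over all libraries and -0.85 without PEL_10d-GH 3, so its direction rested on that library. Hcrt was at 41.9, 115 and 83.3 against 113, 189 and 121 CPM (log2 fold change 0.81, SE 0.32) with overlapping groups. Of 14 hypothalamic transcription factors, Nkx2-1 was lower, at 26.2, 25.2 and 18.9 against 16.7, 16.0 and 17.5 CPM (log2 fold change -0.48, SE 0.13), as was Foxb1 (-0.85, SE 0.37). The counts were 0 higher and 2 lower over all libraries, and 2 higher and 5 lower without PEL_10d 3.

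Most listed genes that respond to glucocorticoids were at higher levels with GH. Glucocorticoids bind a nuclear receptor that acts on DNA directly, and in brain their common targets include feedback regulators, metallothioneins and stress kinases. All 17 listed genes were tested, 11 were higher and 0 lower at an unadjusted p under 0.05, and 17 of 17 had a log2 fold change above 0, with a median of 0.48 against 0.00 over all genes tested. Of these, 9 separated the groups. All the lists, this one included, were written with earlier results of these libraries known. The count of a list is therefore not independent evidence of its direction.

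Tsc22d3, which encodes GILZ, a mediator of glucocorticoid action, was at 60.3, 62.0 and 77.5 CPM without GH and 86.4, 93.0 and 114 CPM with it (log2 fold change 0.55, SE 0.12). Map3k6, a stress kinase gene, was at 1.19, 1.20 and 2.09 against 2.47, 4.64 and 5.51 CPM, the highest log2 fold change of the list at 1.495 (SE 0.36). Sgk1, a serum- and glucocorticoid-induced kinase gene, was at 62.3, 42.8 and 64.0 against 100.3, 73.2 and 179 CPM (log2 fold change 1.06, SE 0.29). Fkbp5, a co-chaperone that lowers the receptor's hormone affinity, was at 37.5, 35.7 and 34.4 against 41.4, 52.8 and 79.3 CPM (log2 fold change 0.69, SE 0.20). For these 4 genes the groups did not overlap, and PEL_10d-GH 3 was the highest library.

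The metallothionein gene Mt1 was at 178, 177 and 188 against 205, 224 and 253 CPM (log2 fold change 0.33, SE 0.08), and the clock gene Per1, also a receptor target, at 42.2, 36.2 and 32.6 against 47.2, 47.0 and 48.3 CPM (log2 fold change 0.36, SE 0.10). Zbtb16, a zinc finger gene, was at 6.70, 9.12 and 12.7 against 11.01, 21.7 and 33.1 CPM, and Plin4, a lipid droplet protein gene, at 5.45, 4.38 and 8.30 against 7.30, 11.1 and 21.1 CPM. In Zbtb16 and Plin4 the lowest library with GH fell inside the range without it, and their log2 fold changes were 1.21 (SE 0.37) and 1.13 (SE 0.38). The lowest value of the list was that of Pdk4, a mitochondrial kinase gene, at 0.09 (SE 0.15). The size of the list's difference depended on PEL_10d-GH 3, the library highest in Pomc and Prl. The median deviation from the PEL_10d mean was 0.22, 0.31 and 0.76 in PEL_10d-GH 1, 2 and 3. Without PEL_10d-GH 3 the median log2 fold change was 0.31, and 10 of the 17 genes were higher at an unadjusted p under 0.05.

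The promoters of the list were searched for the glucocorticoid response element, written as the half-sites GNACA and TGTNC with 3 bases between them, which also reads the same on both strands. It was in 3 of the 15 genes with a RefSeq window (20%) and in 0.537% of all 27025. Those 3 are shown, with the match in capitals, all on the plus strand: Sgk1 at chr10:21993678-21993738, Mt1 at chr8:94178971-94179031 and Map3k6 at chr4:133240613-133240673.
Sgk1: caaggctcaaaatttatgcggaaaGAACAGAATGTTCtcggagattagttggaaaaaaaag
Mt1: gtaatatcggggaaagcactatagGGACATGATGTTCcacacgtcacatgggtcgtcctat
Map3k6: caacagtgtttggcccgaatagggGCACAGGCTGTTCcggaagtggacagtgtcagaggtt
The matches begin at -188, -94 and -181 from the annotated starts, and in Sgk1 at 1 of its alternative starts, inside an intron of the longer isoforms, while the stretches of Mt1 and Map3k6 lie upstream of the gene. Binding of the receptor was not measured here, and genes without these letters in the window include Tsc22d3 and Fkbp5. The list was written as genes that respond to glucocorticoids, so its share of matches is in part set by that choice. The share says nothing about the difference with GH.

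Of listed genes of resident microglia, 8 of 14 were at higher levels with GH. Microglia are the macrophages of the brain, and in the undisturbed state they express receptors such as CSF1R and CX3CR1, which some of them lose when activated. All 14 listed genes were tested and had a log2 fold change above 0, with those 8 higher and 0 lower at an unadjusted p under 0.05, 7 separating the groups, and a median of 0.40. Csf1r, the receptor on which microglia depend, was at 193, 185 and 183 CPM without GH and 264, 269 and 219 CPM with it (log2 fold change 0.42, SE 0.08). Fcrls was at 59.2, 50.4 and 58.7 against 79.2, 105 and 75.6 CPM (0.63, SE 0.13), Tmem119, a microglial membrane protein gene, at 20.5, 21.3 and 18.4 against 31.6, 27.2 and 25.2 CPM (0.48, SE 0.11), and Cx3cr1, the fractalkine receptor gene, at 92.4, 92.4 and 97.4 against 135, 138 and 103 CPM (0.41, SE 0.11). P2ry12, a purine receptor gene, overlapped, at 25.5 to 27.9 against 25.2 to 33.8 CPM (0.23, SE 0.12). PEL_10d-GH 3 was the lowest of the libraries with GH in all 5. Without that library the list's median was 0.51 and 11 genes were past the unadjusted threshold.

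Of 16 complement genes, 4 were higher and 0 lower at an unadjusted p under 0.05, 14 were above 0 and the median was 0.29. The list's median deviation overlapped between the groups, from -0.37 to 0.24 without GH and from -0.03 to 0.49 with it. Without PEL_10d 2 the median was 0.12, and without PEL_10d-GH 1 it was 0.46 with 6 genes higher. Without PEL_10d 1, 7 were higher. All 3 C1q chains were among them, and C1qa was at 151, 116 and 123 against 184, 233 and 184 CPM and C1qc at 155, 109 and 133 against 173, 236 and 205 CPM. The 4th was Itgam, a subunit of complement receptor 3, with a log2 fold change of 0.37 (SE 0.09). Cfb, of the alternative pathway, was at -0.24.

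Genes of disease-associated microglia and phagocytes were less uniform. Of 18, 2 were higher at an unadjusted p under 0.05, 16 were above 0 and the median was 0.23. Cst7, a cathepsin inhibitor gene, was at 7.20, 6.54 and 7.25 against 11.4, 19.6 and 9.98 CPM (log2 fold change 0.96, SE 0.24), and Cd9 had a log2 fold change of 0.36 (SE 0.11). Apoe was at 5126, 3842 and 5289 against 4730, 7220 and 6415 CPM and Tyrobp at 69.1, 33.4 and 55.1 against 58.4, 80.9 and 91.1 CPM, with overlapping groups in both. Mmp12, a macrophage metalloproteinase gene, was the lowest at -0.50. The list's median deviation ranged from -0.55 to 0.30 within the PEL_10d group and from -0.12 to 0.66 with GH, so single libraries overlapped widely, and the median log2 fold change was 0.10 without PEL_10d-GH 3, 0.07 without PEL_10d 2 and 0.46 with 7 genes higher without PEL_10d-GH 1.

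Among border macrophage and leukocyte genes, 12 of 16 were tested, 2 were higher, 11 were above 0 and the median was 0.34. There was 1 higher without PEL_10d 1 or PEL_10d-GH 1 and 3 without PEL_10d 3, and the median lay between 0.26 and 0.44. The 2 were the neutrophil genes S100a9, at 2.51, 1.68 and 0.784 against 9.30, 2.93 and 3.65 CPM, and S100a8, at 1.19, 1.38 and 0.327 against 4.36, 2.04 and 1.39 CPM. PEL_10d-GH 1 was highest in both, and it was also the library highest in haemoglobin. The lymphocyte markers Cd3e and Ms4a1 stayed under the filter on low counts, with at most 15 counts in a library. Of 14 tested chemokines and cytokines, Ccl6 was at 11.8, 8.94 and 11.2 against 21.4, 14.8 and 17.9 CPM (log2 fold change 0.77, SE 0.16) and Tgfb1 had a log2 fold change of 0.58 (SE 0.20), while the other 12 did not reach an unadjusted p of 0.05. The median of that list was 0.06, and as each library was left out it lay between 0.03 and 0.18 with 1 to 3 genes higher. Il1b, Il6, Tnf and Il10 were under the filter, with at most 12 counts in a library.

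Of 19 interferon-stimulated genes, 3 were above 0, 0 were higher and 2 lower at an unadjusted p under 0.05, and the median was -0.19. Ifit2, an interferon-induced inhibitor of viral translation, was at 37.3, 36.3 and 38.9 CPM without GH and 21.4, 29.5 and 25.7 CPM with it (log2 fold change -0.56, SE 0.11), and Ifi44 had a log2 fold change of -0.54 (SE 0.23). The groups were separated in both. The list's deviation was lowest in PEL_10d-GH 3 at -0.40, against -0.11 and 0.04 in the other libraries with GH, and its median was -0.08 without PEL_10d-GH 3, -0.04 without PEL_10d 1 and -0.34 without PEL_10d-GH 2. The number of lower genes was 4 without PEL_10d-GH 2, 3 without PEL_10d 3 and 1 without PEL_10d 1, PEL_10d 2 or PEL_10d-GH 3. Antigen presentation genes, which interferons also induce, were above 0 in 14 of 14, with 2 higher at an unadjusted p under 0.05 and a median of 0.12, which was 0.02 without PEL_10d 2 and 0.31 with 6 higher without PEL_10d 1. B2m, the light chain of class I molecules, was at 251, 218 and 223 against 268, 286 and 258 CPM.

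**Figure D3:**
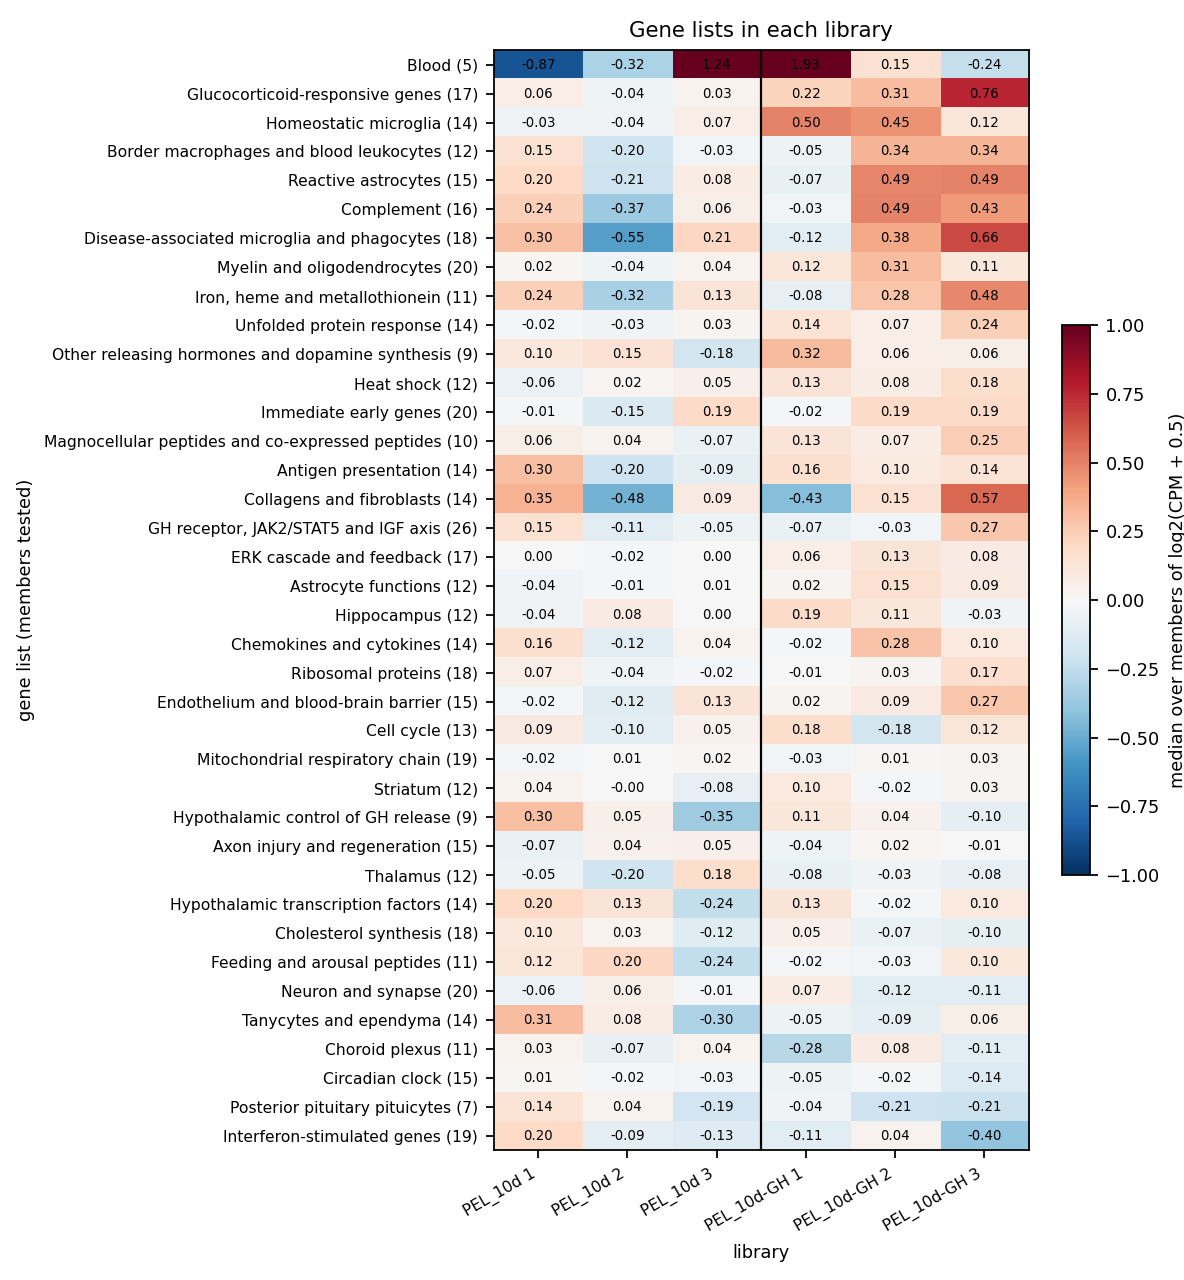
Each cell gives, for 1 library (columns) and 1 gene list of at least 5 tested genes (rows), the median over members of log2(CPM + 0.5) minus the mean of the PEL_10d libraries, with red above and blue below 0 and colours saturating at 1. The glucocorticoid-responsive genes were above every PEL_10d library in all 3 libraries with GH (0.22, 0.31 and 0.76), as were homeostatic microglial genes (0.50, 0.45 and 0.12), whereas blood genes varied from -0.87 to 1.93 with no order by group.

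Of 15 reactive astrocyte genes, 5 were higher and 0 lower at an unadjusted p under 0.05, 13 were above 0 and the median was 0.33. The median was 0.17 without PEL_10d 2 and 0.51 with 9 higher and 1 lower without PEL_10d-GH 1. Of the 5, Fkbp5 is also on the glucocorticoid list and Hspb1 on the heat shock list. Lcn2, which encodes lipocalin 2, a secreted protein of injury and inflammation, was at 4.76, 2.52 and 0.392 CPM without GH and 10.5, 16.5 and 12.7 CPM with it, a log2 fold change of 2.36 (SE 0.52). The groups did not overlap, PEL_10d 3 was the lowest library, and the log2 fold change ranged from 1.86 to 3.15 as each library was left out. Serpina3n, a protease inhibitor gene, was at 208, 191 and 149.6 against 237, 341 and 233 CPM, and Hspb1, a small heat shock protein gene, at 16.8, 9.54 and 14.7 against 17.1, 20.4 and 23.6 CPM. Of 12 genes of astrocyte function, 2 were higher and the median was 0.08, or 5 and 0.15 without PEL_10d-GH 1. Aldh1l1, a folate enzyme used as a pan-astrocyte marker, was at 62.9, 63.0 and 63.4 against 74.8, 78.0 and 72.5 CPM (log2 fold change 0.25, SE 0.06), a small difference with no overlap, and Aldoc, aldolase C, had a log2 fold change of 0.19 (SE 0.06). Aqp4, the water channel gene of astrocyte endfeet, was at 497 to 529 CPM without GH and at 561, 964 and 537 CPM with it, with PEL_10d-GH 2 far above the other libraries and a log2 fold change of 0.42 (SE 0.20).

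Of 20 myelin genes, 9 were higher and 0 lower at an unadjusted p under 0.05, 18 were above 0, 9 separated the groups and the median was 0.20. The list's median deviation was 0.12, 0.31 and 0.11 in PEL_10d-GH 1 to 3, and the number of higher genes was 4 without PEL_10d 2 and 5 without PEL_10d-GH 2, each with 1 lower, and 11 without PEL_10d-GH 3. Mbp, myelin basic protein, was at 3616, 3439 and 3618 CPM without GH and 4301, 4536 and 4097 CPM with it (log2 fold change 0.28, SE 0.06), Mobp at 987, 972 and 1158 against 1321, 1303 and 1363 CPM (0.36, SE 0.08), and Mal at 323, 344 and 320.1 against 384, 424 and 440 CPM (0.34, SE 0.07). Cldn11, the tight junction claudin of myelin, was at 142 to 163 against 175 to 189 CPM. The lowest of the list was Aspa, aspartoacylase, at -0.17. Cholesterol synthesis genes, on which myelin formation draws, did not share this, with 0 of 18 past the unadjusted threshold in either direction and a median of -0.03.

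Of 20 neuron and synapse genes, 0 were higher and 3 lower at an unadjusted p under 0.05, 5 were above 0, and the median was -0.05. The list's median deviation in PEL_10d-GH 1 was 0.07, above all 3 PEL_10d libraries, and the median log2 fold change was -0.01 without PEL_10d-GH 2 and -0.13 without PEL_10d-GH 1. The number of lower genes was 1 without PEL_10d 2 and also without PEL_10d-GH 3, and 4 without PEL_10d 1. Nlgn1, a postsynaptic adhesion gene, was at 73.9, 78.3 and 78.9 against 65.8, 68.5 and 65.8 CPM (log2 fold change -0.21, SE 0.06), Slc17a6, the vesicular glutamate transporter of hypothalamus and thalamus, at 263 to 302 against 241 to 263 CPM (-0.21, SE 0.07), and Gria1 was at -0.21 (SE 0.08). Axon injury and regeneration genes had a median of -0.02, with 1 of 15 past the unadjusted threshold, Sprr1a, at 2.88, 3.12 and 3.14 against 4.12, 6.23 and 6.15 CPM (log2 fold change 0.85, SE 0.21). Of 20 immediate early genes, 2 were higher, Fosl2 at 24.8, 22.3 and 22.4 against 32.2, 30.5 and 39.9 CPM (0.56, SE 0.11) and Fosb (0.53, SE 0.22), and the median was 0.13. This median was 0.02 without PEL_10d-GH 3 and also without PEL_10d 1, and 0.25 with 6 higher without PEL_10d 3.

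The same contrast at day 3 was compared because those libraries are separate from the day 10 libraries. At day 3, 4 of 14798 genes passed edgeR's adjusted threshold (0.027%), all higher with GH, namely Zbtb16, Socs2, Gpr50 and Fam107a. At an unadjusted p under 0.05, 571 were higher (3.86%) and 435 lower (2.94%). At day 10 their log2 fold changes were 1.21 for Zbtb16, 0.77 for Socs2, -0.39 (SE 0.41) for Gpr50, a melatonin-related receptor gene of tanycytes, and 0.33 (SE 0.09) for Fam107a, an actin regulator gene, against 1.91, 1.152, 1.24 and 0.55 at day 3. Of the 550 genes higher at day 10 at an unadjusted p under 0.05, 544 were tested at day 3 and 418 (76.8%) were above 0 there, against 51.6% of all genes. Of the 356 lower genes, 353 were tested and 289 (81.9%) were below 0, against 48.4% of all genes. At an unadjusted p under 0.05 in the same direction there were 106 (19.5%, against 3.86% of all) and 49 (13.9%, against 2.86%).

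Values of the gene groups on both days are set side by side, and their difference was not tested as a group. The glucocorticoid-responsive list had a median log2 fold change of 0.49 at day 3 and 0.48 at day 10, with 17 of 17 genes above 0 on each day. Hif3a was at 1.30 at day 3 and 1.83 at day 10, Slc2a1 at 0.55 and 0.51, Mfsd2a at 0.68 at both, Mertk at 0.63 and 0.75 and Gli1 at -0.57 and -0.62. The homeostatic microglia list was at -0.03 at day 3 against 0.40 at day 10 and the myelin list at -0.01 against 0.20, whereas disease-associated microglia genes were at 0.56 at day 3 against 0.23. Igf1 was at 1.14 (day 3) and 0.44 (day 10), and Cish at 0.92 and 0.48. Oxt was at -0.26 at day 3 and 0.81 at day 10.

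The differences between the days were tested as an interaction, and 0 of 15091 genes passed edgeR's adjusted threshold (0%) or DESeq2's, with 287 (1.9%) higher and 153 (1.01%) lower at an unadjusted p under 0.05. Among named genes the difference of log2 fold changes, day 10 minus day 3, was 2.23 for Lcn2 (unadjusted p = 0.00942), 0.57 for Ly86 (0.00822), 0.37 for Csf1r (0.0198) and -0.53 for Ifit2 (0.00662). For Oxt it was 1.09 (0.0521), and for Hif3a 0.55 (0.144). The adjusted p of every gene just named was 0.9998 by edgeR, so none of these differences passed.

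**Figure D4:**
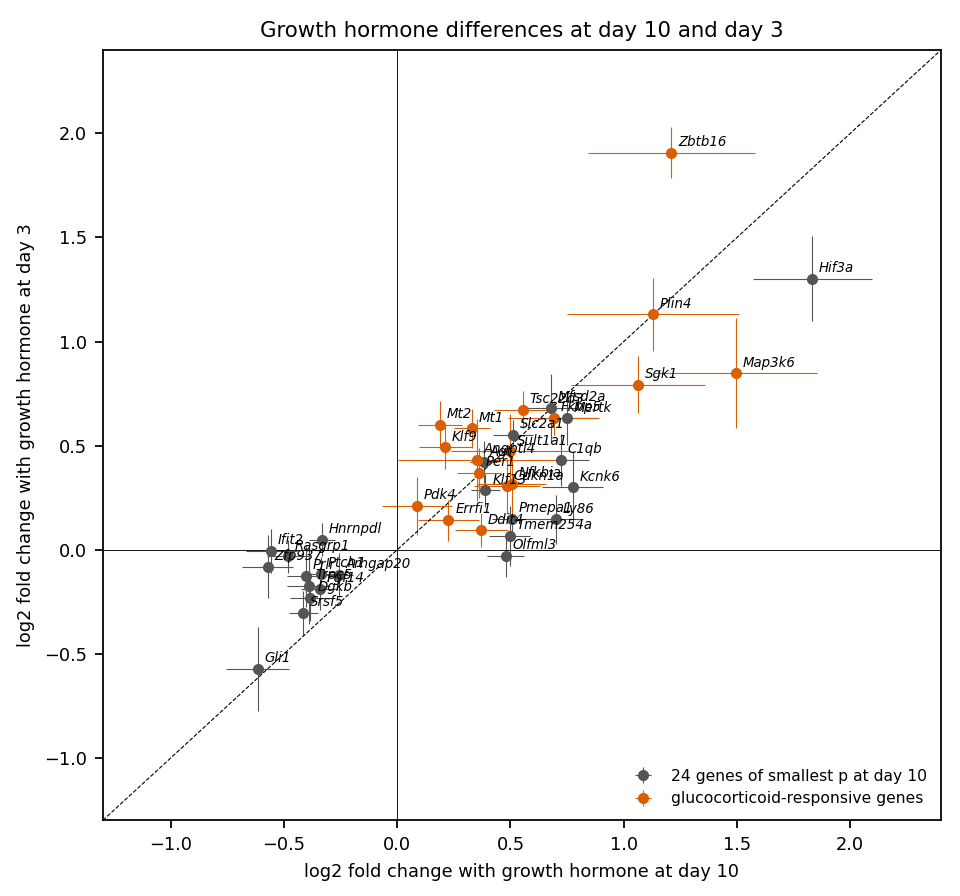
Log2 fold change with GH at day 10 (horizontal) and at day 3 (vertical) with bars of 1 SE on each axis, for the 24 genes of smallest p at day 10 and the 17 glucocorticoid-responsive genes; the dashed line marks equal values. Hif3a (1.83 and 1.30), Zbtb16 (1.21 and 1.91) and Map3k6 (1.495 and 0.85) lie far to the upper right, Gli1 (-0.62 and -0.57) to the lower left, and Olfml3 and Ifit2 near 0 at day 3. The 24 genes were chosen at day 10, so only their day 3 values are free of that choice.

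In mice without a lesion the comparison is limited by a library. The library labelled Sham 1 held Oxt at 0.861 CPM and Avp at 0.287 CPM, against 48.1 and 81.2 CPM in Sham 2. It held Neurod2, of the hippocampus list, at 102.6 CPM against 0.27 and 0.26 CPM in Sham 2 and 3. Folr1, of the choroid plexus list, was at 112 against 1.0 and 0.32 CPM. The study also left an outlying Sham sample out of its hypothalamic analysis, without numbering it in its text. The values below leave Sham 1 out and rest on 2 Sham libraries, a choice made after seeing the data. With Sham 1, 0 of 14404 genes passed the adjusted threshold by edgeR, with 338 higher (2.35%) and 449 lower (3.12%) at an unadjusted p under 0.05. Without it 116 of 14539 passed as higher (0.798%) and 43 as lower (0.296%), and 1215 (8.36%) and 972 (6.69%) at an unadjusted p under 0.05. Hif3a was at 2.03 on the log2 scale in Sham without Sham 1, Slc2a1 at 0.45, Mfsd2a at 0.61 and Tsc22d3 at 0.65, beside 1.83, 0.51, 0.68 and 0.55 at day 10. The glucocorticoid-responsive list had a median of 0.37, with 15 of 17 genes above 0. Homeostatic microglia were at -0.23 with 0 of 14 above 0, and Oxt at -0.76. Of the genes higher at day 10 at an unadjusted p under 0.05, 293 of 531 (55.2%) were above 0 in Sham without Sham 1, against 49.3% of all genes, and of the lower genes 171 of 351 (48.7%) were below 0, against 50.7%. With Sham 1 these shares were 34.7% (against 48.3%) and 38.1% (against 51.7%). As an interaction, the GH effect at day 10 minus that in Sham had 0 of 14970 genes past edgeR's adjusted threshold (0%) with or without Sham 1. With Sham 1 included, 680 genes (4.54%) were higher and 438 (2.93%) lower at an unadjusted p under 0.05, and DESeq2 called 33 (0.22%). Without Sham 1 the difference was 0.92 for Ly86 (unadjusted p = 0.000551), 0.47 for Csf1r, 1.57 for Oxt (0.00277) and -0.19 for Hif3a (0.645).

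**Figure D5:**
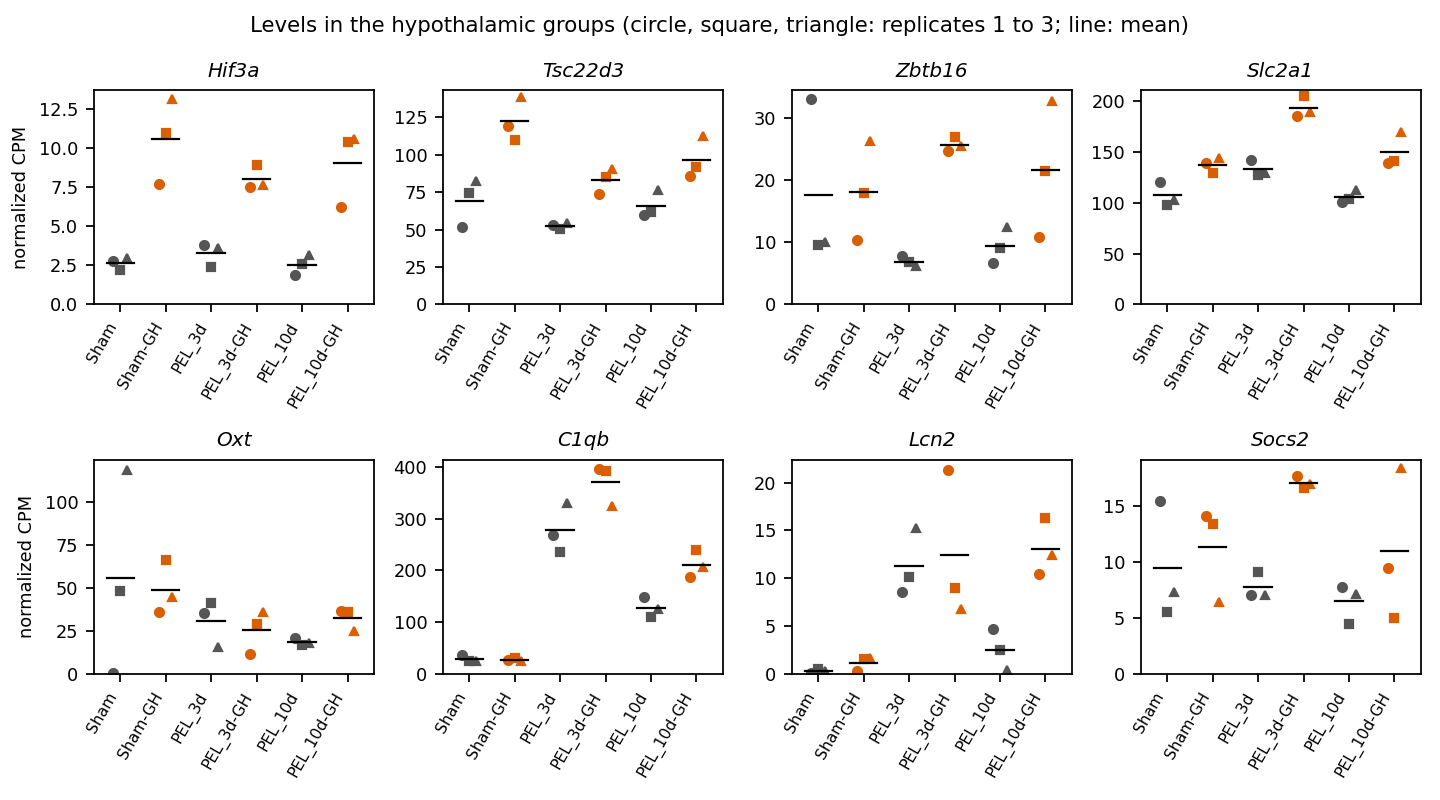
Normalized CPM of 8 genes in each library of the 6 hypothalamic groups, scaled together over 18 libraries, on linear axes starting at 0, with libraries with GH in orange and the group mean as a line. Hif3a and Tsc22d3 were higher with GH in Sham, at day 3 and at day 10 with no overlap within a pair, Oxt was higher with GH only in the day 10 pair by group mean, and Socs2 was separated at day 3 but not at day 10.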

How the data were processed

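RNA of hypothalamic tissue was extracted with RNeasy columns and made into mRNA libraries. According to the study's methods, the authors aligned reads with Hisat2 and counted them with featureCounts, and the submitters' processing notes name GRCm38 (mm10). The annotation release and the strand setting are not given in the sources used here. The authors deposited estimated counts and FPKM values for 22274 genes in 24 libraries. Of the estimated counts, 8.22% were not whole, and all were rounded. The deposited FPKM values entered no test. Symbols were matched for 22219 genes by Ensembl ID, and positions are those of GENCODE on GRCm38.

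Groups were taken from the sample titles. Only the 6 libraries compared entered the fit, with edgeR 4.0.16 (R 4.3.3), TMM normalization, filterByExpr with a minimum count of 10, quasi-likelihood tests and Benjamini-Hochberg adjustment at 0.05. The SE is the absolute log2 fold change divided by the square root of F. Interactions used 12 libraries, less Sham 1 where it is said to be left out. For 3 libraries against 3, an exact permutation test cannot go below 0.1 and was not used. The test was checked on simulated counts with 200 changed genes of mean count at least 50. At day 10 it recovered 55.2% of 1.5-fold and 88.1% of 2-fold changes, with 15 false calls. For the interaction with day 3 it recovered 32.8% and 80.6%, and for that with Sham 2.99% and 26.9%. A count of 0 for the interaction with Sham is therefore weak evidence of no difference. Zero counts allow up to 3, for counting error only.

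The comparison, the 39 gene lists (560 genes) and the tests were chosen with earlier results of these data known. Named were the 12 genes of smallest p per direction with separated groups and a mean CPM of at least 1, all genes of 3 lists (GH axis, GH release, magnocellular peptides), and up to 4 of smallest p of every other list. Zbtb16, Sgk1 and further members of the glucocorticoid and homeostatic microglia lists, the genes called at day 3, Gpr50 and the pituitary, blood and cytokine genes given as levels or counts, and the extremes of lists were named after their values were seen. Alternatives were DESeq2 1.42.0 and its size factors, other count filters, a replicate block, wider fits, limma 3.58.1 (voom) and each library left out. Figures were drawn with matplotlib 3.10.9. One gene of the lists is not reported here.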

Additional observations from a re-analysis of the deposited data

How the results depend on the processing

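Of 16 alternatives for the day 10 comparison, the count of genes called was 0 in all but 2, namely DESeq2 (39) and an unadjusted p under 0.05 (906). DESeq2 also called 33 genes for the difference from Sham, where the other alternatives called 0, and that fit included Sham 1. The cause was not tested. Leaving out each library in turn gave 0 calls in all 3 comparisons. The correlations of same-numbered deviations were -0.16, -0.09 and 0.15, inside the range of -0.31 to 0.37 for different numbers. With 3 libraries a group, these values cannot exclude that the replicate numbers pair the libraries. With the replicate number as a block the count stayed at 0 in each comparison. None of the 24 genes of smallest p changed sign in any alternative. They were chosen with separated groups, so leaving out 1 library could hardly turn their sign. Signs changed for 31 of 223 named genes. Without a library left out these were Jak2 (0.0043 with limma voom), Siglech (-0.0145 with limma voom), Stat3 (0.0011 with the block, 0.0022 in a fit of 4 PEL groups, 0.0212 with voom), Sstr5 (0.00 with the block, 0.0471 with voom) and Pdyn (0.0023 with the block). As each library was left out, log2 fold changes ranged from -0.85 to 5.82 for Pomc, -0.0529 to 0.77 for Angptl4, -0.11 to 0.023 for Apln, -0.61 to 1.56 for Cga, -0.15 to 0.25 for Chga, -0.0141 to 0.64 for Col1a2, -0.0588 to 0.35 for Col4a1, -0.0769 to 0.048 for Grb10, -0.37 to 1.82 for Hba-a1, -0.0529 to 1.70 for Hba-a2, -0.21 to 1.61 for Hbb-bs, -0.49 to 1.61 for Hbb-bt, -0.0765 to 0.0263 for Igf1r, -0.0061 to 0.62 for Igf2, -0.0095 to 0.58 for Igfbp2, -0.20 to 0.61 for Igfbp4, -0.68 to 0.11 for Igfbp6, -0.0892 to 0.0443 for Jak2, -0.0987 to 0.88 for Lyve1, -0.0512 to 0.21 for Pdk4, -0.30 to 0.11 for Pdyn, -0.54 to 0.0474 for Scn7a, -0.0974 to 0.27 for Siglech, -0.11 to 0.52 for Slc2a5, -0.0946 to 0.35 for Socs3, -0.15 to 0.40 for Sst, -0.13 to 0.21 for Sstr3, -0.0232 to 0.25 for Sstr4, -0.14 to 0.19 for Sstr5, -0.063 to 0.0463 for Stat3 and -0.0989 to 0.0095 for Stat5b. The glucocorticoid list's median stayed between 0.31 and 0.54 and the homeostatic microglia list's between 0.35 and 0.51 over these. With 3 libraries a group, the median SE over genes was 0.11 on the log2 scale. The counts at an unadjusted p under 0.05 were 306 higher and 176 lower in a fit of all 6 hypothalamic groups, 1080 and 746 with limma voom, and 293 and 159 without PEL_10d 2.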

Other observations

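Counts here stand beside the 3.73% of all genes higher and 2.41% lower at an unadjusted p under 0.05 at day 10. Of 14 tested genes of the unfolded protein response, 6 were higher and 0 lower, with a median log2 fold change of 0.17. Atf4, its central transcription factor, was at 92.2, 93.8 and 85.5 CPM without GH and 102, 109 and 103 CPM with it (log2 fold change 0.21, SE 0.06), and Sdf2l1, an ER chaperone partner, had a log2 fold change of 0.51 (SE 0.18), whereas Trib3 was at -0.57. Without PEL_10d-GH 3, 1 of the 14 was past the threshold, as was 1 without PEL_10d 2. Of 12 heat shock genes, 4 were higher, among them Hspa1a at 15.7, 16.0 and 15.9 against 18.7, 19.6 and 21.1 CPM, and 1 was without PEL_10d-GH 3. Of 11 iron, heme and metallothionein genes, 3 were higher and 1, the transferrin receptor gene Tfrc, lower, with a median of 0.19, which was 0.05 without PEL_10d 2 and 0.34 with 5 higher without PEL_10d-GH 1. Of the 3, Mt1 is also on the glucocorticoid list.

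Of 15 clock genes, 1 was higher and 2 were lower, with a median of -0.12, which was -0.05 without PEL_10d-GH 2, and with 1 to 3 lower as each library was left out. Hlf, an output factor of the clock, was at 104, 103 and 117 CPM without GH and 80.1, 91.4 and 96.0 CPM with it, and Per1, higher, is also on the glucocorticoid list. Of 17 genes of the ERK cascade and its feedback, 2 were higher and 1 lower, with Spry4, a feedback inhibitor, at 13.4, 14.5 and 14.6 against 17.96, 16.9 and 19.9 CPM and Braf at -0.17 (SE 0.06). Without PEL_10d 1, 4 of the 17 were higher. Of 14 tanycyte and ependymal genes, the cilia genes Tmem212 (0.65, SE 0.21) and Foxj1 (0.29, SE 0.10) were higher, while Rax, a tanycyte factor gene, was at -0.82 and the median was -0.06. Without PEL_10d 3 that list had 1 gene higher and 5 lower and a median of -0.15, and without PEL_10d 1 the median was 0.04. Clic6, a chloride channel family gene of the choroid plexus, was at 21.2, 22.0 and 15.9 against 13.5, 12.1 and 14.7 CPM. The choroid plexus, pituicyte, hippocampus, striatum and thalamus lists had medians of -0.11, -0.16, 0.07, 0.00 and -0.02, and the sign of all but the pituicyte median turned without 1 library or another. The pituicyte list had 1 gene lower, and 4 without PEL_10d 3. That gene, Nkx2-1, is also on the transcription factor list, as Prlr of the GH axis is on that of the choroid plexus and Slc17a6 of the neuron list on that of the thalamus.

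Housekeeping groups were near 0, with medians of 0.01 for 19 respiratory chain genes, 0.06 for 18 ribosomal protein genes and 0.02 for 13 cell cycle genes, and none of these genes was past the unadjusted threshold, though 4 ribosomal protein genes were higher without PEL_10d-GH 1. Collagens and fibroblast genes had a median of 0.12 over all libraries and -0.11 without PEL_10d-GH 3 (0.34 without PEL_10d-GH 1), and of them Sparc was at 1736, 1694 and 1575 against 1955, 1938 and 1977 CPM. The 5 tested blood genes had a median of 0.74 with none past the threshold, -0.21 without PEL_10d-GH 1 and 1.65 with 4 higher without PEL_10d 3. The 3 tested anterior pituitary genes had a median of 0.32. It lay between -0.15 without PEL_10d-GH 3 and 1.76 without PEL_10d 1 as each library was left out. Of these genes, Gh was at 0.188, 1.62 and 0.327 against 0.766, 6.61 and 4.29 CPM.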
